A study of Homo sapiens with 171 samples.

Results

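OVCAR-10 is an established ovarian cancer cell line, and its untreated expression profile is described here against that of DOV13B, C13, IGROV-1 and OVCAR-8, the other 4 lines measured in the same batch. The 3 untreated OVCAR-10 cultures were compared with 12 untreated cultures, 3 of each other line, chosen by the line, treatment and batch in the labels. These 15 arrays belong to a series of 171 arrays of 46 ovarian cancer lines, grown without drug or with cisplatin, a platinum drug that crosslinks DNA, for 48 h at a concentration set for each line by its growth inhibition (GI50). The 3 cisplatin-treated OVCAR-10 cultures and the 12 treated cultures of the other lines were used to see whether the same differences were present in other cultures. Nothing in the labels shows whether cultures of a line came from separate flasks, so the p-values reflect variation among these samples only, and that variation may be technical. All values are log2 expression values, so a difference of 1 is a 2-fold difference. Over all genes and the 15 untreated cultures the median value was 6.58, with 25% of values under 4.95, 10% under 3.82 and 10% over 9.61.

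Ovarian carcinoma cells usually keep epithelial features: keratin filaments, desmosomes and E-cadherin junctions, and often the Müllerian transcription factor PAX8. Lines can also carry a mesenchymal programme, in which vimentin replaces most keratin and regulators such as ZEB1 and SNAI2 repress epithelial genes. Matrix metalloproteinases are secreted enzymes that degrade collagen and other matrix proteins, and many are made by fibroblasts and by invasive tumour cells. HGF is a growth factor usually secreted by mesenchymal cells, and MET is its receptor, usually found on epithelial cells.

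Of the defining markers of epithelial ovarian carcinoma, 7 were checked, and all were lower in OVCAR-10 than in the mean of the other 4 lines. In such bulk samples fewer cells of a type and less RNA per cell cannot be told apart. EPCAM, an epithelial adhesion molecule, was at 3.77, 4.05 and 3.44, and the E-cadherin gene CDH1 at 4.90, 4.27 and 4.52, all under the lower quartile of all genes. PAX8 was at 5.87, 5.75 and 5.35 and MUC16, which encodes the CA125 antigen, at 5.14, 4.91 and 5.02. The keratin KRT18 kept a mean level of 9.62, but the 12 other cultures were higher still at 12.2 to 12.7. KRT8, its partner in simple epithelial filaments, was at 6.98, 6.57 and 6.82, and KRT19 at 6.80, 6.72 and 7.20. The epithelial markers therefore go against a typical epithelial carcinoma profile, and the line is called by its label only.

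Culture 3 of the untreated OVCAR-10 cultures and culture 1 of the treated ones stood apart in one respect. Genes high in a single other line (mean over 10 there, under 7 in the remaining 3 lines and under 6 in untreated OVCAR-10 cultures 1 and 2) were set against the mean of those 2 OVCAR-10 cultures. For 10 genes high in DOV13B, such as GFRA1, INHBA and RGS4, the treated culture 1 was a median of 4.86 above them and the untreated culture 3 a median of 0.65 above. For the treated cultures 2 and 3 the DOV13B medians were 0.08 and 0.07. For 11 genes high in C13, 4 in IGROV-1 and 4 in OVCAR-8 all medians lay between -0.23 and 0.17 in these 4 cultures. Over 1 probe set for each of 18417 genes, the treated culture 1 correlated with the 6 DOV13B cultures at r = 0.959 to 0.961. With the other 5 OVCAR-10 cultures it was at 0.953 to 0.959. The untreated OVCAR-10 cultures correlated with each other at 0.994 to 0.996. The cause was not tested. Leaving out untreated culture 3 changed the call of 2 of 156 named genes, the markers CD14 and KDR, whose differences were small. It moved the difference of 17 named genes by over 0.3, in 16 of them to a lower value, and the largest move was 0.76 in S100A11. The values of S100A11, THBS1, MET, CAV1, ANXA3, TES, CDK6 and ANXA1 are given with and without it, as are the comparisons under cisplatin for treated culture 1. Without untreated culture 3, the differences of other genes named below were -7.53 for CD24, -6.545 for DSG2, -6.17 for ARHGAP29 and -5.78 for UCA1. Those of ITGA2, PMAIP1 and DKK1 were -5.45, -4.495 and -3.55.

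By limma with Benjamini-Hochberg adjustment at 0.05, 5163 of 18417 genes were higher in OVCAR-10 than in the mean of the other 4 lines and 4532 were lower, which is 28% and 24.6% of the genes tested. These calls compare 5 particular lines, with the spread between cultures as the error. When each line counted once, with its mean as the unit and 3 residual degrees of freedom, 85 genes were higher and 21 lower, against 1202 with an unadjusted p under 0.05. Most differences were small, with a median absolute value of 0.27 over all genes and 0.55 among the genes called; the median difference of all genes was -0.03. At least 2-fold differences among called genes were 1058 higher (5.74%) and 1159 lower (6.29%). In 2069 genes (11.2%) all 3 OVCAR-10 cultures lay above all 12 others, and in 1111 genes (6.03%) they lay below. A gap of more than 1 log2 unit separated OVCAR-10 from every other culture in 239 genes above and 201 below. The same counts were 329 and 43 for DOV13B, 173 and 79 for C13, 125 and 124 for IGROV-1, and 181 and 86 for OVCAR-8, each set against the remaining 4 lines. OVCAR-10 thus had the largest count of genes far below the other 4 lines among these 5 lines, a description with no test.

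The largest differences upward spanned much of the scale of the arrays. MUC15, 3 metalloproteinases, a hyaluronan link protein and several membrane proteins were among the bright genes of OVCAR-10 and near the dim end in the other 4 lines. MUC15, a membrane mucin, was at 11.48, 11.55 and 11.39 in OVCAR-10, against 2.81 to 3.86 with a median of 3.29 in the other cultures. The difference was 8.19 ± 0.15 (SE, 3 against 12 cultures, 291-fold, limma adjusted p = 2.48e-16). PCDH18, a protocadherin, was at 12.05, 12.10 and 12.03 in OVCAR-10, against 3.99 to 5.30 elsewhere (7.61 ± 0.08, 195-fold). HAPLN1, which links hyaluronan to proteoglycans, was at 10.65, 10.75 and 10.86, against 3.05 to 3.74 (7.37 ± 0.14). ANO3, a membrane protein of the anoctamin family, was at 10.68, 10.55 and 10.33, against 3.34 to 3.94 (6.90 ± 0.10). These genes were chosen among those in which no OVCAR-10 culture overlapped with another line, so the lack of overlap is no separate result.

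HGF was at 10.21, 10.23 and 10.27 in OVCAR-10, against 3.15 to 3.73 in the 12 others (6.86 ± 0.12, 116-fold). The neural adhesion gene NCAM2 was higher by 6.64 ± 0.12, the fatty acid receptor gene CD36 by 6.56 ± 0.10, the transcriptional cofactor gene VGLL3 by 6.38 ± 0.16, the fibrillar collagen gene COL5A2 by 6.35 ± 0.09, the neurofilament gene NEFH by 6.24 ± 0.13 and POU1F1, a pituitary transcription factor, by 5.89 ± 0.15. These genes too were chosen from those with all 3 OVCAR-10 cultures above all 12 others. All 15 of the largest upward differences passed with the line mean as the unit, at limma adjusted p of 0.0137 or less. They were chosen by their size in the same cultures, so this is no separate support.

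PTPRC, which encodes the leukocyte antigen CD45, had a mean of 9.48 ± 0.04 in OVCAR-10 (SD, n = 3), against 2.62 to 3.85 (6.42 ± 0.10). Of 14 leukocyte markers measured, only PTPRC and CD68, a lysosomal protein, were higher, CD14 was lower and 11 did not pass. The median difference of that list was -0.07. Without PTPRC, the mean level of the other 13 markers was 5.05 to 5.22 in OVCAR-10 cultures and 4.91 to 5.28 in the 12 others. Endothelial markers had 0 of 11 higher and 5 lower, with mean levels of 4.67 to 4.74 in OVCAR-10 and 4.77 to 5.42 elsewhere. Fibroblast and mesothelial markers had 2 of 11 higher and 5 lower, with mean levels of 4.93 to 5.10 in OVCAR-10 and 4.92 to 5.94 elsewhere.

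**Figure D1:**
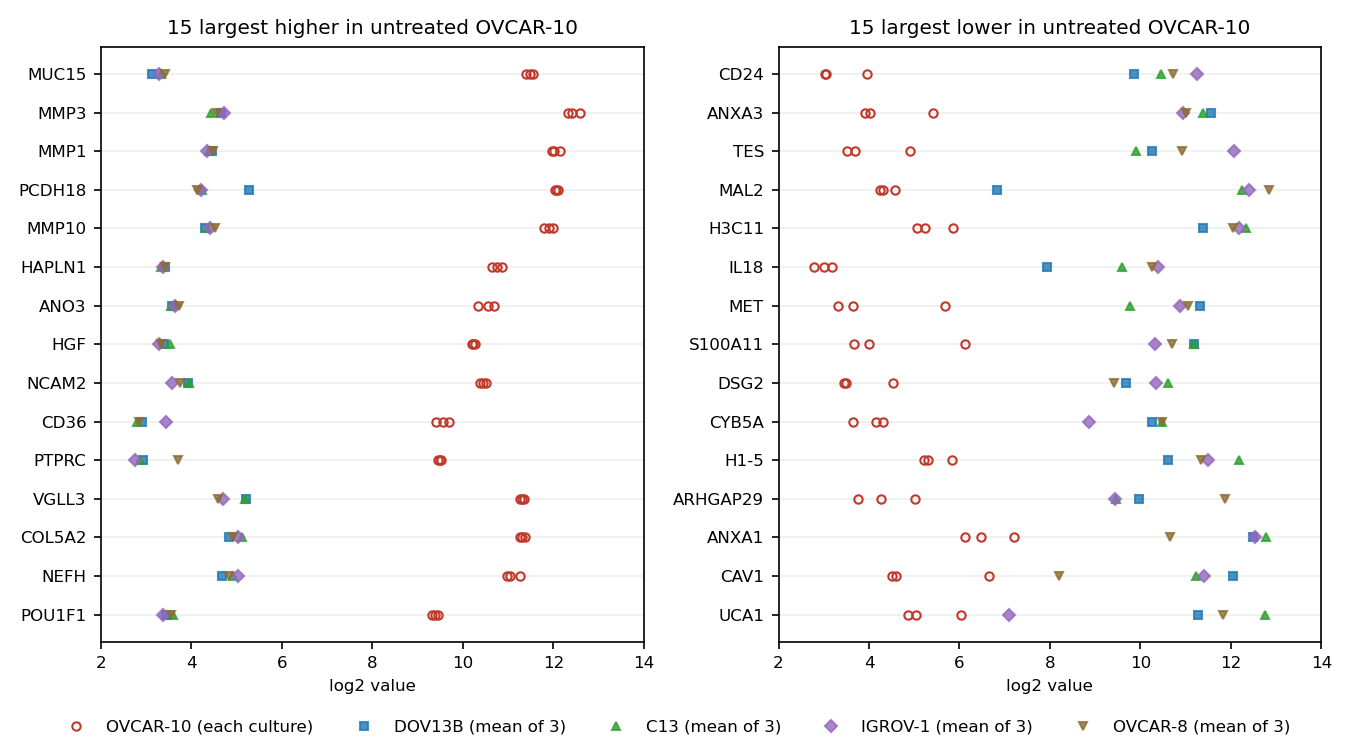
Log2 values of the 15 genes with the largest higher (left) and lower (right) difference in untreated OVCAR-10. Open circles are the 3 OVCAR-10 cultures and filled symbols the means of 3 untreated cultures of each other line; the higher genes sit between about 9 and 13 in OVCAR-10, and the lower genes show untreated culture 3 above the other 2 for most genes.

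CD24, a surface glycoprotein common in carcinoma, was at 3.05, 3.03 and 3.95 in OVCAR-10, against 9.76 to 11.57 in the other cultures (-7.22 ± 0.16, limma adjusted p = 3.04e-15). ANXA3, a calcium-dependent phospholipid-binding protein, was at 3.91, 4.02 and 5.41, against 10.81 to 11.58 (-6.78 ± 0.20, and -7.26 without culture 3). MAL2, a protein of apical membrane traffic, was at 4.31, 4.57 and 4.23, against 6.58 to 12.90 (-6.71 ± 0.09), and DOV13B at a mean of 6.83 was the lowest of the other lines.

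The inflammatory cytokine gene IL18 was lower by 6.55 ± 0.12, the desmosomal cadherin gene DSG2 by 6.19 ± 0.16, S100A11 by 6.26 ± 0.32, CYB5A, which encodes cytochrome b5, by 5.98 ± 0.10, ARHGAP29 by 5.83 ± 0.17 and the long noncoding RNA gene UCA1 by 5.42 ± 0.17. The annexin gene ANXA1 was at 6.12, 6.48 and 7.21 in OVCAR-10, against 10.52 to 12.82 in the other cultures (-5.50 ± 0.14, and -5.81 without culture 3). Culture 3 was the highest of the 3 OVCAR-10 cultures in 480 of 1110 genes called lower and below all other cultures, and cultures 1 and 2 in 315 each. S100A11 was at 3.99, 3.66 and 6.11 in the 3 OVCAR-10 cultures, and without culture 3 its difference was -7.02. The histone genes H3C11 and H1-5 were also among the 15 lowest, by 6.60 ± 0.12 and 5.96 ± 0.10, but histone genes have near-identical copies, so their separate values are uncertain. With the line mean as the unit 7 of these 15 genes passed, namely CD24, ANXA3, H3C11, DSG2, S100A11, MET and H1-5, and without culture 3 the count was also 7.

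Several of these genes are neighbours on their chromosome, an order taken from RefSeq and looked at after their values were seen. On chromosome 11, MMP10, MMP1 and MMP3 lie side by side with other metalloproteinase genes. MMP3, stromelysin 1, was at 12.33, 12.59 and 12.42 in OVCAR-10, against 4.15 to 5.25 in the others (7.85 ± 0.17, 231-fold). MMP1, interstitial collagenase, was at 11.97, 12.16 and 12.02, against 4.08 to 4.75 (7.64 ± 0.13), and MMP10, stromelysin 2, at a mean of 11.90 ± 0.11 (SD, n = 3), against 4.14 to 4.74 (7.51 ± 0.12). MMP12 and MMP13, the next genes on that side, were higher by 1.06 ± 0.11 and 1.89 ± 0.11 but stayed dim, at 4.24 and 5.65. On the other side MMP8, MMP27 and MMP20 were at -0.16, 0.09 and -0.18 and did not pass, and MMP7, matrilysin, was lower by 3.53 ± 0.17, at 3.20, 3.38 and 3.72 against 3.59 to 8.64. The high values were therefore limited to MMP10, MMP1 and MMP3 among the 9 genes measured here.

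The upstream sequences of MMP10, a high gene, and of MMP7, a low gene of the same cluster, are shown. Both carry the motif TGANTCA at the same distance from the start of the gene. This motif is a loose form of the AP-1 site, which has G or C at its centre. The promoter table used here, made from RefSeq (GRCh38.p14), held 5 of these 9 genes; MMP1, MMP3, MMP12 and MMP13 were not analysed here for sequence. Each run is the 250 bases before the gene start, on the minus strand of chromosome 11, 5′ to 3′, with the motif in capitals.
MMP10, chr11:102780629-102780878: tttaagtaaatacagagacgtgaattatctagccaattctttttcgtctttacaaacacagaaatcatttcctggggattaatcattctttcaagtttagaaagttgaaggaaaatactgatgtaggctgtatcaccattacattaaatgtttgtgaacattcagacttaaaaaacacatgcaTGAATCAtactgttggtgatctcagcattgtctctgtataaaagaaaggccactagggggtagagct
MMP7, chr11:102530748-102530997: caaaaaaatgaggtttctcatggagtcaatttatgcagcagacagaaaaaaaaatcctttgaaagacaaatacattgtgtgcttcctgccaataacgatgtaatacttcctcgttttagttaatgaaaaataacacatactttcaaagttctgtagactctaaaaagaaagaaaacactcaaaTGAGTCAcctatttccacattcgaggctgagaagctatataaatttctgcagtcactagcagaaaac
In both the first base of the motif lies 67 bases before the start. MMP20, which did not pass, also had 1 match, 112 bases before its start, and MMP27 and MMP8 had 0. The pattern reads the same on both strands and was searched with any base at its centre. That base is A in MMP10 and G in MMP7, so the MMP10 match is not of the strict AP-1 form. In the loose form the pattern was present in 2308 of 35116 promoter windows of this length, or 6.57%. MMP10 is the only one of the 3 high genes whose sequence was searched, and a match is a description of the letters.

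MUC15 overlaps ANO3 on chromosome 11 and both were high; whether their probe sets share signal was not tested. On chromosome 7, CD36, HGF and CACNA2D1, a calcium channel subunit gene, were higher by 6.56, 6.86 and 5.29, while SEMA3C between CD36 and HGF was lower by 0.86 ± 0.08. On chromosome 3, VGLL3 and POU1F1 were higher by 6.38 and 5.89 with CHMP2B between them, which was higher by 1.11 ± 0.07. On another stretch of chromosome 7, TES, CAV1 and MET were all low. TES, a focal adhesion protein gene, was at 3.52, 3.68 and 4.91 in OVCAR-10, against 9.88 to 12.13 in the others (-6.75 ± 0.19). CAV1, the main protein of caveolae, was at 4.51, 4.59 and 6.66, against 8.03 to 12.09 (-5.47 ± 0.30), and MET at 3.65, 3.30 and 5.69, against 9.74 to 11.41 (-6.54 ± 0.31). Without culture 3 these differences were -7.18, -6.17 and -7.28. The next gene, CAPZA2, was at 10.63, 10.75 and 10.57 in OVCAR-10, within the 9.48 to 11.88 of the others (-0.17 ± 0.07, adjusted p = 0.0516).

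**Figure D2:**
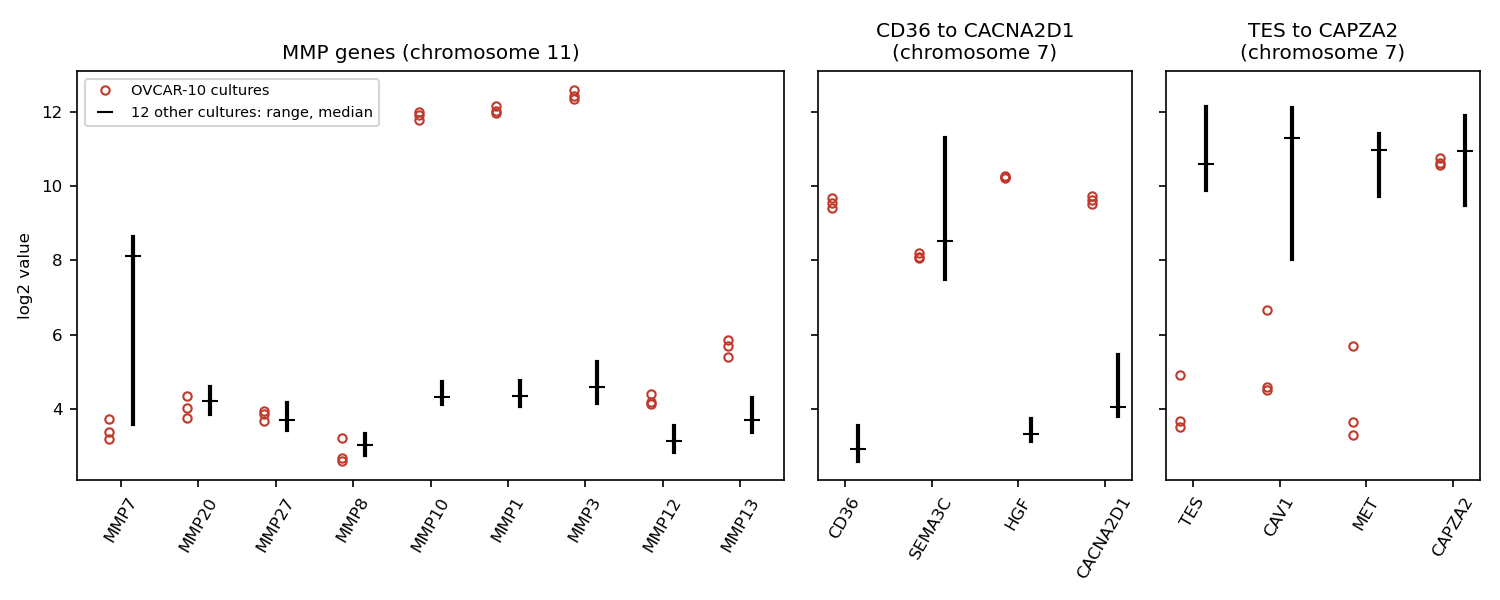
Log2 values of genes in chromosome order in untreated cultures; red open circles are OVCAR-10 cultures and black lines the range of the 12 other cultures with a tick at the median. MMP10, MMP1 and MMP3 stand at about 12 in OVCAR-10 while their neighbours stay below 6 there, and CAPZA2 lies inside the range of the other cultures beside the low genes TES, CAV1 and MET.

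All 30 measured epithelial genes were lower in OVCAR-10 than in the mean of the 4 lines, with a median difference of -1.65, against 24.6% of all genes lower and a median of -0.03. Of these, 12 had all OVCAR-10 cultures below all others, a pattern found in 6.03% of all genes. After MAL2, the largest differences were those of the desmosomal linker gene DSP and EHF, an epithelial transcription factor. DSP was at 3.93, 3.82 and 4.38 in OVCAR-10, against 8.32 to 9.91 (-5.15 ± 0.10), and EHF at 3.05, 3.17 and 3.52, against 6.14 to 9.66 (-5.08 ± 0.13). Keratins gave 10 of 11 lower and 0 higher with a median of -1.94, led by KRT8 (-5.40 ± 0.09), KRT7 (-4.33 ± 0.10) and KRT19 (-4.20 ± 0.09), which do not overlap with the other lines. Against single lines the keratin median was -0.63 for DOV13B, -2.30 for C13, -0.22 for IGROV-1 and -1.69 for OVCAR-8. Against IGROV-1 5 of 11 keratins were lower and 1 higher.

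The epithelial difference depended on the line it was set against. Against C13 and OVCAR-8, lines with CDH1 means of 11.01 and 9.58, all 30 genes were lower in OVCAR-10, with medians of -2.56 and -2.66. Against IGROV-1, with CDH1 at 5.83, 16 of 30 were lower and 0 higher (median -0.58). Against DOV13B, with CDH1 at 4.89, 11 were lower and 6 higher (median -0.20). The percentages of all genes lower in OVCAR-10 were 21.4% against DOV13B, 25% against C13, 21.5% against IGROV-1 and 23.9% against OVCAR-8, and those higher were 27.1%, 26.5%, 24.2% and 27.9%. EPCAM was at a mean of 6.69 in DOV13B, 11.21 in C13, 4.14 in IGROV-1 and 12.10 in OVCAR-8, so the 3 OVCAR-10 cultures overlapped with IGROV-1. Low EPCAM and CDH1 were shared with another line of the batch, whereas low KRT8, DSP and EHF were not.

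**Figure D3:**
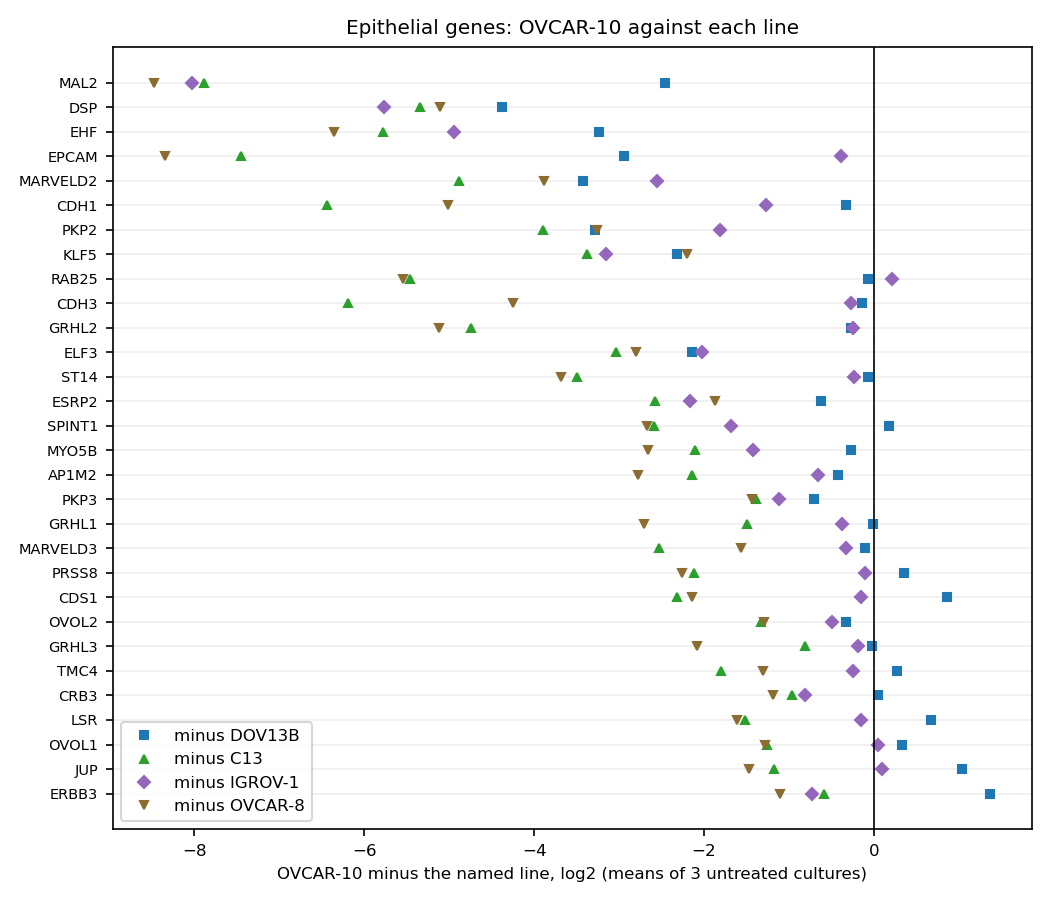
OVCAR-10 minus each other line, on the log2 scale, for the 30 measured epithelial genes, as differences of means of 3 untreated cultures. All points against C13 and OVCAR-8 lie left of 0, while those against DOV13B and IGROV-1 lie near 0 for many genes.

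For the gene lists that follow, the count called is read against the 28% of all genes higher and 24.6% lower. The median against the mean of 4 lines hides differences between those lines: 21 of 42 lists had a median of the same sign against each single line. With genes below the median level left out as dim, 5 of 42 medians turned sign.

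Mesenchymal genes went both ways, with 11 of 26 higher, 13 lower and a median of -0.26. Against single lines the median was -0.86 for DOV13B, -0.09 for C13, 0.33 for IGROV-1 and 0.12 for OVCAR-8. With dim genes left out it turned to 0.35, with 11 of 18 higher and 7 lower. The vimentin gene VIM was at 12.70, 12.73 and 12.96 in OVCAR-10, against 5.30 to 12.58 (4.50 ± 0.08), and SNAI2, a repressor of epithelial genes, at 10.62, 10.60 and 10.67, against 4.45 to 9.68 (3.85 ± 0.14). ZEB1 was at 8.12, 8.12 and 8.01, against 4.63 to 8.17 (1.79 ± 0.10). VIM and ZEB1 in OVCAR-10 were close to the DOV13B means of 12.54 and 8.08. CAV1, a member of the same list, was among the genes most reduced. Collagen and matrix genes gave 6 of 28 higher and 17 lower (median -0.36), with COL5A2 at the top, COL4A1 lower by 2.87 ± 0.08 and THBS1 lower by 4.71 ± 0.33, at 4.43, 3.87 and 6.39 in the OVCAR-10 cultures (-5.46 without culture 3). Integrins gave 3 of 15 higher and 8 lower (median -0.91). Against single lines the integrin median was -0.86 for DOV13B, -0.16 for C13, 0.05 for IGROV-1 and -0.24 for OVCAR-8. ITGA2, a collagen receptor subunit, was lower by 5.12 ± 0.16 and ITGB8 by 4.35 ± 0.16.

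Of 23 Müllerian and ovarian carcinoma markers 17 were lower, 1 was higher and 5 did not pass (median -0.89). The median was -0.12 against DOV13B, -0.50 against C13, -0.21 against IGROV-1 and -1.49 against OVCAR-8. Against DOV13B 9 were lower and 2 higher, and against IGROV-1 9 were lower and 1 higher. MECOM, a transcription factor gene often amplified in ovarian cancer, was at 4.44, 4.57 and 4.34 in OVCAR-10, against 8.18 to 10.76 (-4.91 ± 0.08), and SPINT2, a protease inhibitor gene, was lower by 4.26 ± 0.07. PAX8 was lower by 3.09 ± 0.13 and SOX17, another Müllerian factor, by 1.52 ± 0.14, both below all other cultures. WT1 at -0.56 ± 0.10 and MUC16 at -0.40 ± 0.09 passed but overlapped with the other lines.

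HOX genes, which encode position along the body axis, gave 15 of 27 higher, 8 lower and a median of 0.98, the highest median of the 42 lists. HOXB9 was at 10.69, 10.72 and 10.87 in OVCAR-10, against 6.09 to 8.88 (2.99 ± 0.09), HOXC10 was higher by 2.63 ± 0.11 and HOXB6 by 2.15 ± 0.08. Against the single lines the list median was 0.25 for DOV13B, 0.24 for C13, 1.21 for IGROV-1 and 0.04 for OVCAR-8.

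Receptor tyrosine kinases and their ligands were mostly lower, 24 of 31 with 4 higher (median -0.83). The ligand HGF was among the highest genes of the line and its receptor MET among the lowest. The collagen receptor kinase DDR2 was at 11.03, 10.94 and 10.99 in OVCAR-10, against 4.86 to 5.37 (5.84 ± 0.08). In the insulin-like growth factor axis 13 of 16 genes were lower and 0 higher (median -0.58); IGF1R was lower by 2.07 ± 0.08 and IRS1, its adaptor, by 2.24 ± 0.11. TGF-beta and BMP genes gave 8 higher and 16 lower of 25 (median -0.91), with BMP4 lower by 3.29 ± 0.11 and TGFBR2 by 3.17 ± 0.17. WNT genes gave 7 higher and 13 lower of 30 (median -0.13, and 0.06 with 6 higher and 6 lower of 15 where dim genes were left out), with FZD6 lower by 2.55 ± 0.07, WNT7A by 2.29 ± 0.07 and DKK1 by 3.07 ± 0.25.

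NF-kB targets, chemokines and interleukins were lower in 25 of 32 and higher in 3 (median -0.73), led by IL18 and by TNFAIP2 (-3.23 ± 0.12). That list's median was -1.19 against DOV13B, -0.41 against C13, -0.13 against IGROV-1 and -0.44 against OVCAR-8. Against IGROV-1 8 of 32 were lower and 5 higher, beside 21.5% and 24.2% of all genes. Interferon-stimulated genes split, with 17 of 35 higher and 13 lower (median 0.17). With dim genes left out 11 of 18 were higher and 4 lower (median 0.72). The median was -0.41 against DOV13B, -0.08 against C13, 1.24 against IGROV-1 and 0.28 against OVCAR-8. In the mean comparison IFIT1 was higher by 3.37 ± 0.11 and IFITM1 by 2.87 ± 0.11, and SAMD9 lower by 2.88 ± 0.15. Antigen presentation genes gave 7 higher and 4 lower of 14 (median 0.18), and the lower share was close to that of all genes. Their median was -0.31 against DOV13B and -0.22 against C13, but 0.71 against IGROV-1 and 0.02 against OVCAR-8. The stress ligands MICA and MICB were higher by 1.96 ± 0.08 and 1.55 ± 0.09, and the immunoproteasome gene PSMB8 was lower by 2.92 ± 0.09, with IGROV-1 also low at 4.59. Secreted proteases and inhibitors other than the 3 metalloproteinases were mostly lower than in the mean of the 4 lines: the whole list had 7 higher and 19 lower of 29 (median -1.05). Against IGROV-1 9 of these 29 were higher and 9 lower (median -0.11). Their medians were -0.65 against DOV13B, -0.23 against C13 and -0.69 against OVCAR-8.

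Genes that bear on platinum drugs differed in both directions. Crosslink and excision repair genes gave 24 of 35 higher and 5 lower (median 0.42). FANCF, a Fanconi anaemia core gene, was higher by 2.56 ± 0.12. C13, IGROV-1 and OVCAR-8 had means of 3.53, 3.87 and 3.91, while DOV13B, at 7.95, was above OVCAR-10 at 7.25, 7.51 and 7.37. FANCM was higher by 1.32 ± 0.11 and the excision nuclease gene ERCC1 by 1.01 ± 0.09, both above all other cultures. SLFN11, whose product sensitises cells to DNA damage, was lower by 2.29 ± 0.18; DOV13B and C13 had means of 9.43 and 6.64, and IGROV-1, at 3.99, overlapped with OVCAR-10. Metallothionein and glutathione genes gave 18 of 26 lower and 8 higher (median -0.87). The glutathione peroxidase gene GPX1 was at 6.12, 5.89 and 6.48 in OVCAR-10, against 9.58 to 10.87 (-4.23 ± 0.11), MGST2 was lower by 4.47 ± 0.13 and MT1F, which binds metal ions, by 3.19 ± 0.12. Of 18 transporter genes 6 were higher and 10 lower (median -0.41); the copper exporter ATP7B was higher by 0.86 ± 0.08, the copper importer SLC31A1 by 0.38 ± 0.09 and the organic cation transporter SLC47A1 by 2.14 ± 0.10. ABCB1, the drug efflux pump, was at -0.09 ± 0.12 (adjusted p = 0.583). NRF2 targets gave 4 of 19 higher and 13 lower (median -0.64). Their median was -0.87 against DOV13B, -0.90 against C13 and -0.26 against IGROV-1. Against OVCAR-8 9 NRF2 targets were higher and 7 lower (median 0.12). The transporter median was 0.01 against DOV13B, -0.22 against C13, -0.40 against IGROV-1 and 0.04 against OVCAR-8.

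Cell-cycle lists differed by the line of comparison. Mitotic genes gave 15 of 29 higher and 2 lower (median 0.21), with TTK higher by 0.90 ± 0.08. Against DOV13B 25 of these 29 were higher and 0 lower (median 0.56), while against OVCAR-8 9 were higher and 7 lower (median -0.04). DNA replication genes gave 11 of 32 higher and 5 lower (median 0.11), a share higher near that of all genes, with RRM2 higher by 0.68 ± 0.07. Of these 32, 29 were higher and 0 lower against DOV13B (median 0.83), 3 higher and 16 lower against C13 (median -0.29), 3 higher and 15 lower against IGROV-1 (median -0.26), and 10 higher and 9 lower against OVCAR-8 (median 0.07). The cyclin gene CCND2 was at 12.75, 12.81 and 12.88 in OVCAR-10, against 5.11 to 11.38 (4.45 ± 0.12), and the cyclin kinase gene CDK6 at 3.44, 3.27 and 4.60, against 3.42 to 10.61 (-4.19 ± 0.19, and -4.60 without culture 3); IGROV-1, at 3.67, was as low. The cyclin E gene CCNE1 was at 0.17 ± 0.10 and did not pass. Of 18 tumour suppressor genes 12 were higher and 3 lower (median 0.38), with NF2 at a mean of 10.99 in OVCAR-10, against 5.77 to 9.54 (2.32 ± 0.18), and BRCA1 higher by 0.94 ± 0.08. Of 30 p53 pathway genes 10 were higher and 14 lower (median -0.15), with the pro-apoptotic gene PMAIP1 lower by 4.15 ± 0.16, GDF15 by 2.77 ± 0.11 and CDKN1A by 0.71 ± 0.11. Against DOV13B 3 of the 30 were higher and 21 lower (median -0.89), whereas the median was 0.09 against C13, 0.02 against IGROV-1 and 0.23 against OVCAR-8. CDKN1A did not pass against IGROV-1 (limma adjusted p = 0.152) or OVCAR-8 (adjusted p = 0.066). Ribosomal protein genes were lower in 15 of 20 and higher in 1 (median -0.34), led by RPS14 at -0.95 ± 0.08. Of 9 housekeeping genes 2 were lower and 0 higher, with a median of 0.003.

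**Figure D4:**
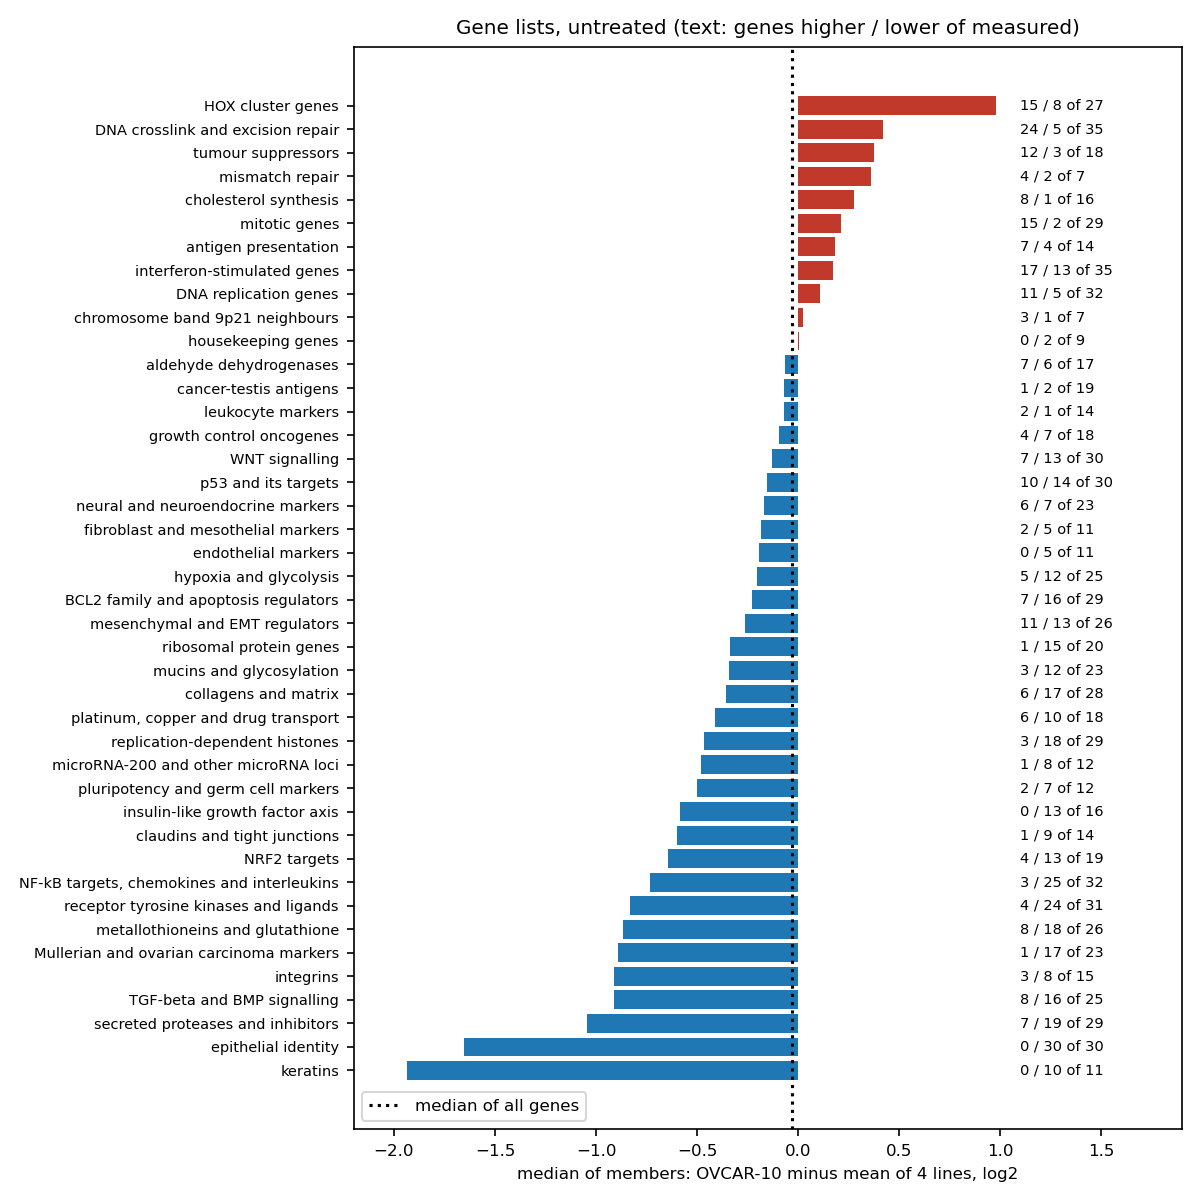
Median difference of the measured members of each list, untreated OVCAR-10 minus the mean of the other 4 lines, on the log2 scale; the text at the right gives genes higher and lower of those measured, and the dotted line the median of all genes. Keratins and epithelial genes have the lowest medians, -1.94 and -1.65, and HOX genes the highest at 0.98.

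Against all 17 other lines of batches 1 to 3, several of these levels were not particular to OVCAR-10. OVCAR-10 had the highest mean of 18 lines for MUC15, MMP3, MMP10, PCDH18, PTPRC and NF2. MMP1 was higher in TYK-nu at 13.05, and HGF, DDR2, CCND2 and HOXB9 were higher in A2780, at 11.84, 12.11, 12.90 and 11.28. NCAM2 and POU1F1 were also higher in A2780, at 11.24 and 9.92. Among the 15 genes most raised in OVCAR-10, the A2780 mean was above 8 in 10, with MUC15 at 9.05 and PTPRC at 2.98. Among the 15 most lowered, the A2780 mean was below 6 in 9. OVCAR-10 had the lowest mean for KRT8, CDH1, PAX8, ANXA3 and TES, and A2780 at 4.00 was below it for MET.

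Over the 1000 most variable genes, each centred over 18 lines, OVCAR-10 was most like A2780 of batch 1, with Pearson r = 0.52 across genes, followed by OV90 at 0.29. The lines of its own batch were at -0.08 for IGROV-1, -0.19 for DOV13B, -0.20 for OVCAR-8 and -0.23 for C13. Genes are not independent and the value is a description without a p. The pair of OVCAR-10 and A2780 ranked 6 of 153 pairs of lines. Among the 30 lines of batches 4 and 5, which are on another scale and were centred separately, A2780cisR was the most like OVCAR-10 with r = 0.80, and the next was TOV-21G at 0.35. This comparison was chosen after seeing the data. Measured the same way, PA-1 and OVCA433 correlated with themselves across the 2 sets at 0.91, and A2780 with A2780cisR at 0.57. Of the 15 genes most raised in OVCAR-10, A2780cisR had the highest value of those 30 lines in 11, and PTPRC was at 3.21 there. Of the 15 most lowered, it had the lowest value in 5. A2780cisR is a single untreated culture, 1 of those 30 lines. Identity of the lines was not tested.

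**Figure D5:**
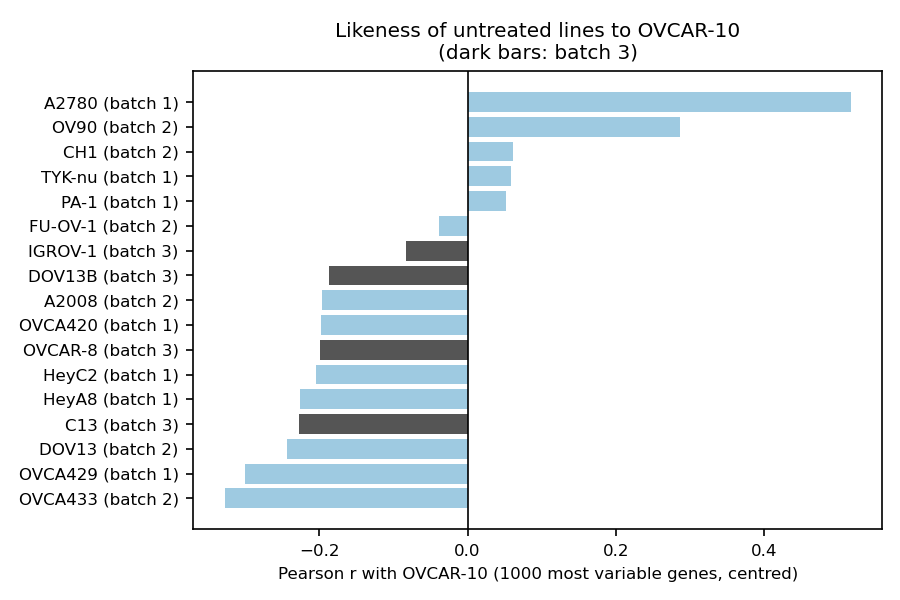
Pearson correlation of each untreated line with OVCAR-10 over the 1000 most variable genes, each centred over 18 lines of batches 1 to 3; dark bars are the other lines of batch 3. A2780 stands at 0.52, and the 4 lines of batch 3 lie below 0.

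Under cisplatin 4116 genes were higher in OVCAR-10 than in the mean of the other treated lines (22.3%) and 3194 were lower (17.3%). Of the genes higher without treatment 3823 of 5163 were called higher under cisplatin, and of those lower 2744 of 4532. Without the treated culture 1 of OVCAR-10 the counts were 4235 higher (23%) and 3385 lower (18.4%), with 3954 and 3072 of the untreated calls kept. MUC15 was at 10.99, 11.71 and 11.66 in treated OVCAR-10, against 3.04 to 3.97 in the other treated cultures, and PTPRC at 9.04, 9.46 and 9.39, against 2.72 to 4.04. KRT8 was at 10.94, 6.28 and 6.51 in treated OVCAR-10, MET at 10.70, 3.86 and 3.80 and ANXA3 at 10.34, 4.50 and 3.82. In these genes treated culture 1 was near the level of the other lines and the other 2 treated cultures were near the untreated OVCAR-10 cultures. With it, the treated difference of MET was -4.74, and without it -7.03.

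The difference between OVCAR-10 and the other lines changed with treatment in 14 genes (0.076%, against 1670 with an unadjusted p under 0.05), and in 65 genes (0.353%) without the treated culture 1. It was 39 genes without treated culture 2, 35 without treated culture 3, and 9 without untreated culture 1 or without untreated culture 2 of OVCAR-10. The histone gene H3C12 was lower by 0.94 under cisplatin and by 2.70 without treatment, a change of 1.76 ± 0.21, and H2BC14 was at 2.31 under cisplatin and 0.37 without treatment, a change of 1.94 ± 0.14. Both passed with and without that culture. H2BC14 was at a mean of 12.09 in untreated OVCAR-10 and at 11.85, 11.92 and 12.07 in the treated cultures, so it did not rise there. H3C12 was at a mean of 4.51 untreated and at 4.78, 5.24 and 4.84 treated. Histone values are uncertain for the reason given above.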

How the data were processed

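The deposited values were log2 expression values of 33297 probe sets on Affymetrix arrays. Per the submitters' processing notes the authors used RMA, whose version was not stated. RMA makes the arrays of a run more alike in distribution, so a difference common to nearly all genes may not be seen. The deposited values were not fully alike, with array medians of 5.67 to 6.05 in batch 3. Per the labels' protocols, RNA was labelled from 200 ng of total RNA. There is no read depth on arrays; how many there are sets the precision. The array upper quartile was 7.83 to 8.05 in batch 3 and 5.80 to 6.59 in batches 4 and 5.

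Gene symbols came from the platform annotation, updated by gene identifier through RefSeq (19429 probe sets matched). A single symbol was given for 19460 probe sets and several for 1754, while 12083 had none listed. The probe set with the highest mean was kept for each of 18417 genes. Repeat arrays of a culture were averaged.

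Lines were compared in R 4.3.3 with limma 3.58.1 (lmFit and eBayes on the cultures, with a mean for each line and each other line weighted equally in the contrast, Benjamini-Hochberg over all genes, threshold 0.05). The fit was tested on simulated data with normal noise, in which 200 of 18417 genes were changed. It recovered 18.5% of changes of 0.3 log2 units, 77.8% of those of 0.6 and 99.4% of those of 1.2. The median count of false calls was 6. Far more genes were called in the real data, so the simulated setting differs from them. Members and lists were chosen with earlier results of these data known; the lists have no test of their own. Named genes were the 15 largest differences in each direction among called genes whose OVCAR-10 cultures all lay outside the range of the others, up to 3 called members of each list (2 where none was called), a fixed set of 20 genes, and the 3 largest differences in each direction for each pair of lines. Genes of chromosome neighbourhoods were added after seeing values, as were a few list members in the account of markers and treatment. Alternatives changed the unit, scaling, filter on dim genes, probe set, variance model, comparison lines, minimum change and cultures. Replicate numbers did not pair cultures: 2 of 30 same-number pairs had r over 0.1.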

Additional observations from a re-analysis of the deposited data

Results flagged for a closer look

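For 14 genes the difference between OVCAR-10 and the other 4 lines under cisplatin itself differed from the untreated one, by the limma interaction test at an adjusted p under 0.05. The change of the difference on the log2 scale was upward for H2AC16 (1.15), H2BC14 (1.94), H2BC3 (1.12), H2BC9 (1.28), H3C1 (1.44), H3C12 (1.76) and SFN (0.91). All but SFN of these 7 are histone genes, whose near-identical copies make the separate values uncertain. It was downward for APOBEC3B (-0.93), CLTRN (-1.23), CTSV (-0.91), GON7 (-0.63), IFNGR1 (-0.49), KRTAP3-1 (-0.79) and VGLL1 (-0.93). A change of the difference can lie in the other lines as well as in OVCAR-10, as the H2BC14 levels given earlier show. Without the treated culture 1 of OVCAR-10, VGLL1 had an adjusted p of 0.0588 and no longer passed, and the other 13 passed.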

How the results depend on the processing

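With the 5 line means as the unit, 85 genes were higher and 21 lower untreated, and 70 and 8 under cisplatin; without untreated culture 3 of OVCAR-10, an alternative added after seeing the data, 82 were higher and 22 lower. With dim genes left out, the lower counts were 2551 untreated and 2021 under cisplatin, from fewer genes tested. With a minimum change of 1.5-fold, 1393 were higher and 1358 lower untreated, 3204 were called against DOV13B, 3220 against C13, 2788 against IGROV-1 and 3433 against OVCAR-8, 1045 were higher and 772 lower under cisplatin, and 3 changed with treatment. Leaving out single cultures gave 4704 to 5273 higher and 3889 to 4629 lower untreated, and 9 to 65 genes that changed with treatment. With the replicate number as a block, 5117 were higher and 4459 lower; only 2 of 15 cultures correlated best with their own number. Centring arrays on their median gave 5513 higher and 4035 lower. MTAP was at -0.372 without DOV13B, CDKN2A at 0.281 without C13 and 0.366 against all 17 other lines, and LIN28A at 0.054 without IGROV-1, the opposite sign in each case; the cause was not tested. With dim genes left out, medians of 5 lists turned sign: mesenchymal 0.35, WNT 0.06, growth control oncogenes 0.08, apoptosis regulators 0.02 and leukocyte markers 0.39. Of 156 named genes, 28 passed with line means as the unit.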
